A study of Mus musculus with 6 samples.

Results

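The genes described here are 3 ligands of bone morphogenetic protein (BMP) signalling, 4 Smad proteins that carry or brake the signal, and 3 Id genes that respond to it. They were listed by symbol (Bmp2, Bmp4, Bmp8b, Smad1, Smad5, Smad6, Smad7, Id1, Id2 and Id3) and matched to array rows annotated with that symbol alone, each of them having 1 such row, and they are 10 of the 19938 genes tested. Total epithelial cells were prepared from the jejunum, a stretch of small intestine between duodenum and ileum, and their RNA was hybridised to Affymetrix Gene 1.0 ST arrays. The tested animals, 1 array each, were 3 transgenic mice carrying TRE-Msi1, a Musashi gene behind a doxycycline-responsive promoter, together with R26-M2rtTA, the doxycycline-dependent activator of that promoter. They were compared with 3 control mice that carried R26-M2rtTA alone. Animals of both groups drank doxycycline for 24 h, so the activator and the drug are common to all arrays and no untreated animal entered. The activator is expressed from the Rosa26 locus, which is active in most tissues, so that this driver does not confine the transgene to the epithelium. The labels used here give neither age nor strain.

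BMPs are secreted dimers that bind pairs of type I and type II receptor kinases. The receptors phosphorylate Smad1 and Smad5, which join Smad4 and enter the nucleus, where Id1, Id2 and Id3 are among the best known targets, while Smad6 and Smad7 are induced by the pathway and inhibit it. In the small intestine BMP ligands are known mainly from the mesenchyme and the villus, BMP antagonists from around the crypt base, and signalling is known to be strongest toward the villus, where it restrains stem cell behaviour.

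All values are log2 signals, and differences are transgenic minus control. The induced gene Msi1 averaged 12.60 ± 0.09 on the transgenic arrays and 6.94 ± 0.09 on the control arrays (log2 signal, SD, n = 3 each), a difference of 5.66 (limma adjusted p = 1.34e-05). One label field gives the transgenic genotype as TRE-MSI2 and not TRE-Msi1, and Msi2 averaged 8.22 ± 0.30 on the transgenic arrays and 8.64 ± 0.06 on the control arrays. Transgenic replicate 1 stood apart from every other array. Across genes it correlated with the other 5 at 0.922 to 0.951, against 0.996 between transgenic replicates 2 and 3 and 0.995 to 0.996 among the controls, and the member results are therefore also given without it. A gene passed when its adjusted p from limma, a linear model fitted to all genes with a shared estimate of the spread, was under 0.05 after Benjamini-Hochberg adjustment over the 19938 genes, and ± is an SD over 3 arrays. In a preparation of many cells, a lower signal can come from less RNA per cell or from fewer cells of a type, and these cannot be told apart here.

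After 24 h of induction Id1 and Smad1 were higher in the transgenic epithelium, each by about 1.6-fold, and the other 8 genes did not pass. These 2 of 10 genes passed in a comparison in which 11.9% of all genes passed and 6.04% passed as higher. No member passed as lower with limma, against 5.84% of all genes, and 1 member, Smad6, was lower at an unadjusted p under 0.05. The groups did not overlap for 5 of the 10, Id1 and Smad1 above the controls and Id2, Smad6 and Smad7 below them, while 34.2% of all genes had groups that did not overlap (16.0% higher and 18.2% lower). The median difference of the 10 was -0.21, and that of all genes -0.04. The plot of the values on each array shows the 10 genes side by side.

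**Figure D1:**
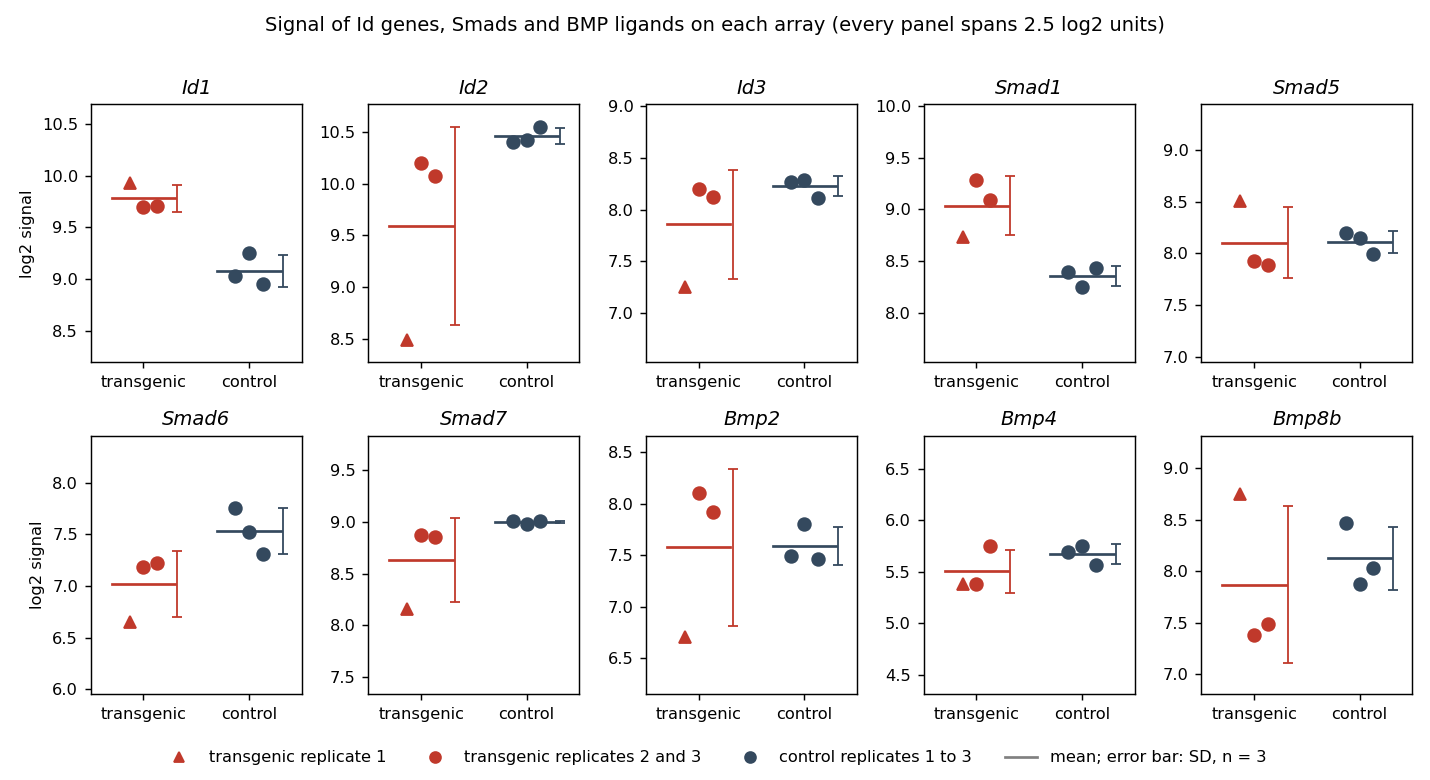
Log2 signal (y axis) of each of the 10 genes on the 3 transgenic arrays (red, left in each panel; replicate 1 as a triangle) and the 3 control arrays (dark, right), with the group mean as a line and the SD as an error bar (n = 3). Id1 and Smad1 lie above the controls on every transgenic array, and transgenic replicate 1 lies far from replicates 2 and 3 for Id2, Id3, Bmp2 and Bmp8b.

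Among the ligands 0 of 3 passed with limma, and 0 had an unadjusted p under 0.05. Bmp2, a ligand that activates the Smad1 and Smad5 branch, had 6.70, 8.11 and 7.92 on transgenic replicates 1, 2 and 3, against 7.49, 7.80 and 7.47 on the controls. Transgenic replicate 1 was thus the lowest of the 6 arrays and transgenic replicates 2 and 3 the highest. The mean difference was -0.01 (SE 0.37, 95% interval -0.92 to 0.89, limma adjusted p = 0.99). Without transgenic replicate 1 Bmp2 was higher by 0.42 (SE 0.12, limma adjusted p = 0.0339), a 1.34-fold difference.

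Bmp8b, a less studied ligand of the same family, had the opposite order. It had 8.74 on transgenic replicate 1 and 7.38 and 7.49 on transgenic replicates 2 and 3, against 8.46, 7.88 and 8.03 on the controls. Its difference over all arrays was -0.26 (SE 0.39, 95% interval -1.20 to 0.69, limma adjusted p = 0.766). Without transgenic replicate 1 it was lower, with a difference of -0.69 (SE 0.16, limma adjusted p = 0.0121), or 1.62-fold lower. Bmp8a is a close paralog of Bmp8b, so that probes for one may also bind the other's transcript, which was not tested. Bmp8a had 6.05, 7.39 and 7.25 on the transgenic arrays, against 8.50, 8.10 and 8.47 on the controls. These groups did not overlap, and the difference of -1.46 did not pass (SE 0.37, limma adjusted p = 0.0541), whereas without transgenic replicate 1 Bmp8a was lower, at -1.04 (SE 0.13, limma adjusted p = 0.000607).

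Bmp4, the ligand best known from the mesenchyme below the epithelium, was near the lower limit of the measurement. It had 5.39, 5.38 and 5.75 on the transgenic arrays, against 5.69, 5.75 and 5.56 on the controls, and the groups overlapped. On none of the 6 arrays did it exceed the 95th percentile of 1194 olfactory and vomeronasal receptor genes, which lay between 5.66 and 5.97 and served as a background level for genes that intestine is not known to use. The difference was -0.16 (SE 0.13, 95% interval -0.48 to 0.15, limma adjusted p = 0.518). The other 9 members exceeded that level on all 6 arrays.

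Of the 2 members that are receptor-activated Smads, which the BMP receptors phosphorylate, Smad1 passed and Smad5 did not. Smad9, also a Smad of this branch, is given below with the other Smads. Smad1 had 8.73, 9.29 and 9.09 on the transgenic arrays, against 8.40, 8.25 and 8.43 on the controls. All 3 transgenic arrays lay above the highest control, with replicate 1 nearest to it. Smad1 averaged 9.04 ± 0.28 on the transgenic arrays and 8.36 ± 0.10 on the control arrays, and it rose by 0.68 (SE 0.16, 95% interval 0.30 to 1.06, limma adjusted p = 0.0422), or 1.60-fold. The call was lost without transgenic replicate 2 or 3 (differences of 0.55 and 0.65, limma adjusted p = 0.101 and 0.104) and without control replicate 1, 2 or 3 (0.70, 0.62 and 0.71, limma adjusted p = 0.142, 0.165 and 0.123). It held without transgenic replicate 1, where the difference was 0.83 (SE 0.10, limma adjusted p = 0.000459). It was also lost under quantile normalization (limma adjusted p = 0.0566) and with a mean-dependent, robust spread (0.057).

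Smad5, its close relative with the same place in the pathway, had 8.50, 7.93 and 7.88 on the transgenic arrays, against 8.19, 8.15 and 7.99 on the controls. Replicate 1 was the highest array and the other 2 transgenic arrays were the lowest, and the mean difference was -0.01 (SE 0.18, 95% interval -0.45 to 0.44, limma adjusted p = 0.99). Without replicate 1 the difference was -0.21 (SE 0.09, limma adjusted p = 0.151). Whether the difference of Smad1 departs from that of Smad5 was not tested.

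The inhibitory Smads lay lower on every transgenic array and neither passed. Smad6, which restrains BMP signalling in particular, had 6.65, 7.18 and 7.22 on the transgenic arrays, against 7.75, 7.53 and 7.31 on the controls. Its groups came close without overlapping, and the difference was -0.51 (SE 0.19, 95% interval -0.98 to -0.04, limma adjusted p = 0.163). Smad7, which also restrains TGF-beta signalling, had 8.16, 8.88 and 8.86 on the transgenic arrays, against 9.01, 8.99 and 9.01 on the controls. The controls of Smad7 were nearly identical (SD 0.01), and transgenic replicate 1 lay farthest below them, with a difference of -0.37 (SE 0.20, limma adjusted p = 0.342). Without it the differences were -0.33 for Smad6 (limma adjusted p = 0.0964) and -0.13 for Smad7 (limma adjusted p = 0.29).

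**Figure D2:**
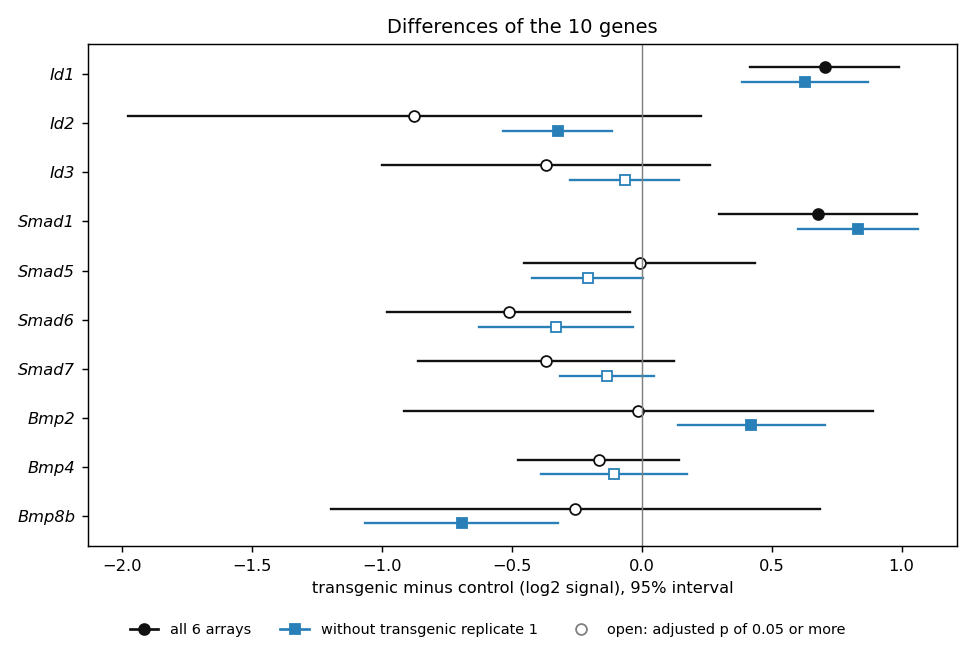
Difference, transgenic minus control, in log2 signal (x axis) with its 95% interval for each of the 10 genes (rows), over all 6 arrays (black circles) and without transgenic replicate 1 (blue squares). Filled symbols passed a limma adjusted p of 0.05: Id1 and Smad1 over all arrays, and these with Id2, Bmp2 and Bmp8b without replicate 1.

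Of the Id genes, which encode small proteins that bind E proteins and keep them from DNA, Id1 rose and Id2 and Id3 did not pass. Id1 had 9.93, 9.70 and 9.71 on the transgenic arrays, against 9.03, 9.25 and 8.95 on the controls. The lowest transgenic array lay above the highest control by more than the range of either group. Id1 averaged 9.78 ± 0.13 on the transgenic arrays and 9.08 ± 0.16 on the control arrays and rose by 0.70 (SE 0.12, 95% interval 0.42 to 0.99, limma adjusted p = 0.0162), or 1.63-fold. The call held without any 1 transgenic array and without control replicate 2, with 0.63 (limma adjusted p = 0.00254) when transgenic replicate 1 was left out. It was lost without control replicate 1 (0.68, limma adjusted p = 0.0867) and without control replicate 3 (0.64, limma adjusted p = 0.0731).

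Id2, the Id gene also known from intraepithelial and other innate lymphocytes, had 8.48, 10.21 and 10.08 on the transgenic arrays, against 10.41, 10.43 and 10.56 on the controls. All 3 transgenic arrays were below the controls, replicate 1 by far the most. The difference was -0.88 (SE 0.45, 95% interval -1.98 to 0.23) and did not pass (limma adjusted p = 0.313). Without transgenic replicate 1 Id2 was lower, at -0.32 (SE 0.09, limma adjusted p = 0.0289), or 1.25-fold lower. Id3 had 7.25, 8.20 and 8.13 on the transgenic arrays, against 8.27, 8.29 and 8.12 on the controls. Replicate 1 was low and the other 2 transgenic arrays lay among the controls, with a difference of -0.37 (SE 0.26, limma adjusted p = 0.469) and of -0.06 without replicate 1 (limma adjusted p = 0.717).

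The genes whose pattern over the 6 arrays lay nearest to those of the members that passed were taken by the root mean square difference after subtraction of each gene's control mean. Predicted genes, with symbols of Gm or LOC plus digits or ending in Rik, were left out of this search. For Id1 the nearest gene was Med4, a subunit of the Mediator complex, at 0.0257 log2 units. Med4 had 8.37, 8.09 and 8.09 on the transgenic arrays, against 7.45, 7.69 and 7.34 on the controls. These values follow from its choice by likeness to Id1 and are no separate result. For Smad1 it was Gpbp1, a GC-rich promoter binding protein, at 0.0492 log2 units.

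To show the DNA just upstream of these genes, the 250 bases before the start site were read for Smad1, which rose, and for Id2 and Id3, the Id genes that lay lowest on transgenic replicate 1. The sequences are RefSeq's for build GRCm38.p6 and run 5′ to 3′ on the gene's strand. In the sequences at hand 7 of the 10 genes matched, and Id1, Smad7 and Bmp2 did not. Id1, which also rose, could therefore not be shown. The Smad1 window is chr8:79399429-79399678 on the minus strand, the Id2 window chr12:25096093-25096342 on the minus strand and the Id3 window chr4:136143572-136143821 on the plus strand. Capitals mark the Smad box, GTCT or its reverse complement AGAC, and the GC-rich Smad motif GGCGCC, searched on both strands.
Smad1: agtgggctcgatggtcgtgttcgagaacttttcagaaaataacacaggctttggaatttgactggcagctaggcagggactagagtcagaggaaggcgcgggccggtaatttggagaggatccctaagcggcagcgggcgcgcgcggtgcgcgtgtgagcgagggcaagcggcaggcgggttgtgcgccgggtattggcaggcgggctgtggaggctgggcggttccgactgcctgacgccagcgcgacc
Id2: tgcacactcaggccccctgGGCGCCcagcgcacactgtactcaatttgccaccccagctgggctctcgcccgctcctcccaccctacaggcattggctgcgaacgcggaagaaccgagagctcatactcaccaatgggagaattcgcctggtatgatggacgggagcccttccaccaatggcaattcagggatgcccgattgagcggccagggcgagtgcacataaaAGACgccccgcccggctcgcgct
Id3: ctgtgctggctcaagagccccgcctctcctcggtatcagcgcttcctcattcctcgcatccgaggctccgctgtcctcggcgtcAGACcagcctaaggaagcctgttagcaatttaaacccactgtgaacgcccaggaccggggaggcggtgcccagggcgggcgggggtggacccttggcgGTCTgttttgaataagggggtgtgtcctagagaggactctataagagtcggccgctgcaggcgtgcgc
Neither motif was found in these letters for Smad1. The Id2 window held 1 Smad box, whose first base lies 23 bases before the start, and 1 GGCGCC, 231 bases before it, and the Id3 window held 2 Smad boxes, 166 and 68 bases before the start. The Smad box occurred in 82.9% of 32817 windows of the same length and GGCGCC in 9.59%, and the motifs share no bases in the windows shown. A match is a stretch of letters and not a measured binding site.

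Of 76 measured genes in 8 lists of the wider pathway, 5 rose and 6 fell, 11 in all where 11.9% of all genes passed. Their median difference was -0.07. The lists were written from general knowledge of the pathway, and Hfe2 and Runx2 had no row with that symbol alone. The plot of these lists shows most genes near 0 and single genes moving in each direction.

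**Figure D3:**
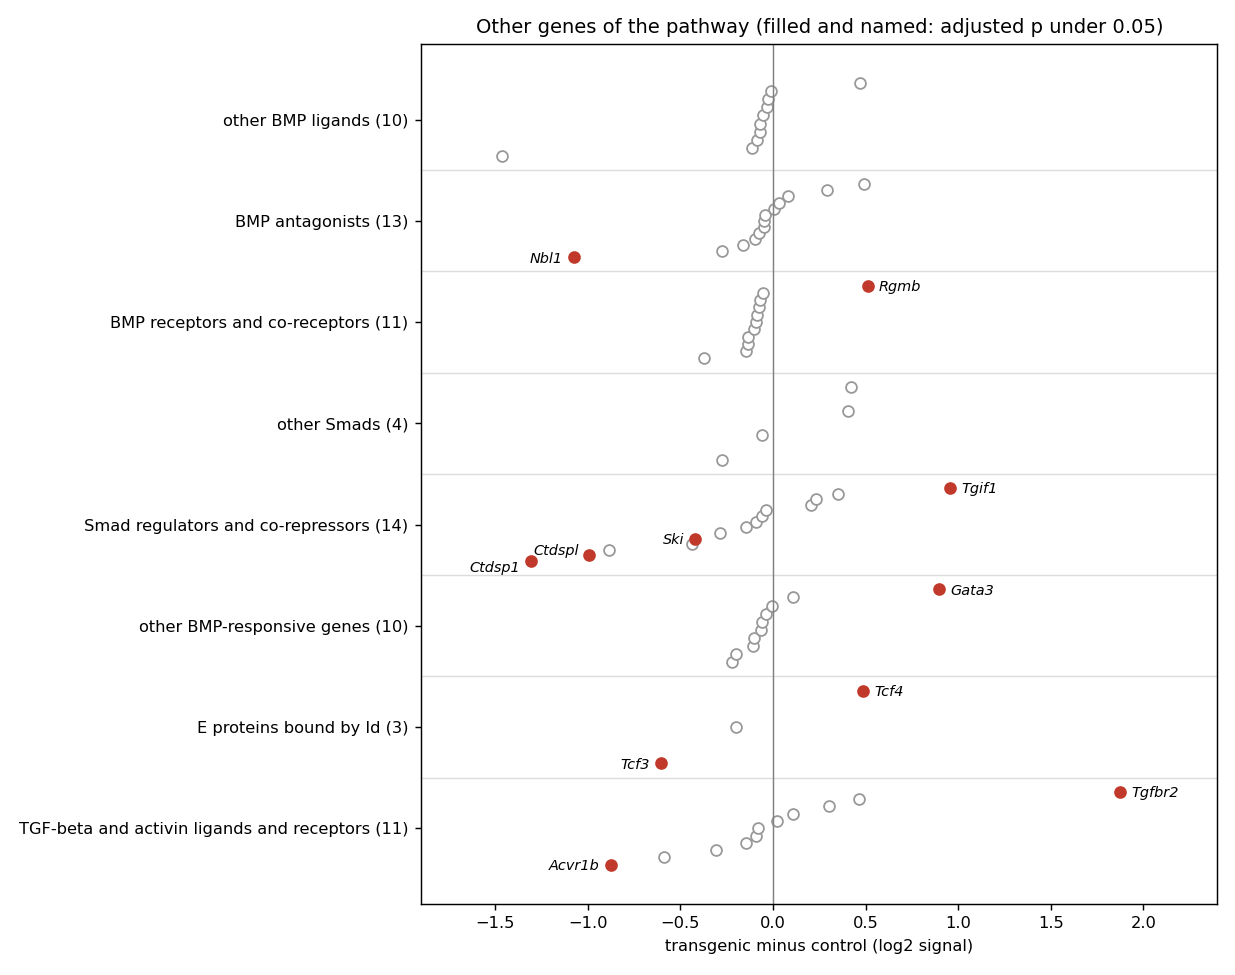
Difference, transgenic minus control, in log2 signal (x axis) of 76 genes in 8 lists of the BMP and TGF-beta pathway (rows, with the number of measured genes). Filled, named points are the 11 that passed a limma adjusted p of 0.05, from Ctdsp1 at -1.31 to Tgfbr2 at 1.88.

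Outside the cell, 0 of 10 other ligands passed with limma (2 at an unadjusted p under 0.05). Bmp3, an atypical family member that opposes other BMPs, differed by 0.47 and did not pass (SE 0.19, limma adjusted p = 0.188). Of 13 antagonists, Nbl1, which binds and blocks BMP ligands, fell. It had 6.02, 6.23 and 6.11 on the transgenic arrays, against 7.51, 7.13 and 6.94 on the controls, a difference of -1.08 (SE 0.16, limma adjusted p = 0.0111, and 0.0558 without control replicate 2). Its lowest control lay well above its highest transgenic array. Twsg1, which can both help and hinder BMP ligands, differed by 0.49 and did not pass (SE 0.14, limma adjusted p = 0.0761), and Sost by 0.08 (limma adjusted p = 0.682).

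At the membrane, 1 of 11 receptors and co-receptors passed. Rgmb, a co-receptor that binds BMP ligands, had 9.48, 9.37 and 9.48 on the transgenic arrays, against 8.81, 8.91 and 9.08 on the controls, and rose by 0.51 (SE 0.10, limma adjusted p = 0.0239). Its call was lost without transgenic replicate 2 or 3 or control replicate 1 or 2 (limma adjusted p up to 0.11) and with a mean-dependent, robust spread (0.0513). The intervals of the main signalling receptors included 0. Bmpr1a, the type I receptor known for its role in the intestinal epithelium, differed by -0.09 (95% interval -0.35 to 0.18, limma adjusted p = 0.715), and the type II receptor Bmpr2 by -0.13 (95% interval -0.33 to 0.06, limma adjusted p = 0.384).

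Inside the cell, 0 of 4 other Smads passed with limma (2 at an unadjusted p under 0.05). Smad4, the shared partner of all receptor-activated Smads, had 10.72, 11.56 and 11.53 on the transgenic arrays, against 10.83, 10.82 and 10.89 on the controls. Replicates 2 and 3 lay above every control and replicate 1 just below them. The difference was 0.42 (SE 0.23, limma adjusted p = 0.344) over all arrays and 0.70 without transgenic replicate 1 (SE 0.08, limma adjusted p = 0.000372). Smad2, of the TGF-beta branch, differed by 0.40 and did not pass (SE 0.12, limma adjusted p = 0.0948). Smad9, of the BMP branch, had 6.43, 6.39 and 6.41 on the transgenic arrays, against 6.57, 6.80 and 6.68 on the controls. Its groups did not overlap, and the difference of -0.28 did not pass (SE 0.09, limma adjusted p = 0.106).

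Of 14 regulators of Smads, 1 rose and 3 fell. Ctdsp1 and Ctdspl are related phosphatases reported to remove phosphate from Smad1. Ctdsp1 had 7.93, 8.62 and 8.49 on the transgenic arrays, against 9.69, 9.66 and 9.61 on the controls, and fell, with a difference of -1.31 (SE 0.18, limma adjusted p = 0.00963). Ctdspl had 7.67, 8.08 and 8.09 on the transgenic arrays, against 8.94, 8.92 and 8.95 on the controls, and fell, with a difference of -0.99 (SE 0.13, limma adjusted p = 0.00799). For both, every transgenic array lay below the controls by many times the spread of the controls. The calls were lost without control replicate 1 (limma adjusted p = 0.0579 for Ctdsp1 and 0.0502 for Ctdspl), and that of Ctdsp1 also without control replicate 2 (0.0552). Ski, a co-repressor that binds Smads, fell, with a difference of -0.42 (SE 0.08, limma adjusted p = 0.026). Tgif1, a co-repressor of the TGF-beta branch, had 10.20, 9.56 and 9.55 on the transgenic arrays, against 8.75, 8.81 and 8.88 on the controls, and rose by 0.96 (SE 0.19, limma adjusted p = 0.0269). Ski and Tgif1 each lost the call without transgenic replicate 2 or any 1 control (limma adjusted p up to 0.13 and 0.117). Ski also lost it with a mean-dependent, robust spread (0.0754) and Tgif1 under quantile normalization (0.0539). The anti-proliferative Smad partner Tob1 and the phosphatase Ppm1a differed by -0.14 and -0.28 and did not pass (limma adjusted p = 0.837 and 0.241).

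Of 10 other genes known to respond to BMP in some tissues, Gata3 passed, a transcription factor of lymphoid and several epithelial lineages. It had 6.68, 6.77 and 6.64 on the transgenic arrays, against 5.81, 5.98 and 5.60 on the controls, and rose by 0.90 (SE 0.12, limma adjusted p = 0.00731), a call kept with each array left out in turn. Its control signals were near the background level of 5.72, 5.89 and 5.72 on these arrays, and control replicate 3 was below it. Id4, the fourth Id gene, differed by -0.01 and Msx1 by -0.10 (limma adjusted p = 0.98 and 0.577). Of the 3 E proteins that Id proteins bind, Tcf3 had 7.84, 7.63 and 7.63 on the transgenic arrays, against 8.32, 8.33 and 8.27 on the controls, and fell by 0.60 (SE 0.09, limma adjusted p = 0.0111). Tcf4 had 8.60, 8.60 and 8.52 on the transgenic arrays, against 8.10, 7.92 and 8.24 on the controls, and rose by 0.49 (SE 0.10, limma adjusted p = 0.0338). Tcf12 differed by -0.20 and did not pass (limma adjusted p = 0.564). The call of Tcf3 was lost without any 1 control (limma adjusted p up to 0.0697), and that of Tcf4 was kept only when transgenic replicate 1 was the array left out (0.0116, against 0.0598 to 0.134 for the others), and lost with a mean-dependent, robust spread (0.0697).

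In the neighbouring TGF-beta and activin branch, 1 of 11 genes rose and 1 fell. Tgfbr2, the type II receptor of TGF-beta, had 9.62, 8.74 and 8.62 on the transgenic arrays, against 7.15, 7.28 and 6.92 on the controls. It rose by 1.88 (SE 0.28, limma adjusted p = 0.0108), or 3.67-fold, and by 1.56 without transgenic replicate 1 (limma adjusted p = 4.77e-05). Acvr1b, a type I receptor for activin, had 7.90, 8.44 and 8.23 on the transgenic arrays, against 9.11, 8.98 and 9.10 on the controls, and fell, with a difference of -0.88 (SE 0.15, limma adjusted p = 0.0167). Both lost the call without any 1 control (limma adjusted p up to 0.0592 and 0.0861). The TGF-beta type I receptor Tgfbr1 differed by 0.46 and Acvr1c by -0.59, and neither passed (limma adjusted p = 0.357 and 0.206).

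Without transgenic replicate 1, 5 of the 10 members passed, Id1, Smad1 and Bmp2 as higher and Id2 and Bmp8b as lower, where 28.6% of all genes passed (14.0% higher and 14.5% lower). Leaving out any other array gave 1 (Id1) or 0, the count of 0 with limma coming without control replicate 1 or 3 (2 and 3 at an unadjusted p under 0.05). For 3 of the 10, namely Smad5, Bmp2 and Bmp8b, replicate 1 lay outside the controls on the side opposite to replicates 2 and 3, as it did for 9.56% of all genes. For 7 of the 10 it was the transgenic array farthest from the control mean, against 49.0% of all genes. It was below every control for 6 of them (Id2, Id3, Smad6, Smad7, Bmp2 and Bmp4), against 45.6% of all genes, and above every control for the other 4, against 32.0% of all genes.

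Markers of cell types moved with the same array. The labelled epithelium was borne out by its markers, with all 10 above the background level on every array. Their median deviation from the control mean was -0.15, -0.05 and -0.04 on transgenic replicates 1, 2 and 3. Single markers moved farther on replicate 1, where 7 of the 10 were below every control and 2 above every control. Vil1 lay there at -1.33 and Krt18 at 1.296 from the control mean. Of the 10 epithelium markers Cdh1 alone passed, higher by 0.34 (limma adjusted p = 0.0415). Transgenic replicate 1 was below every control for 45.6% of all genes and for all 12 villus enterocyte markers, whose median deviation there was -2.23, against -0.10 and -0.13 on replicates 2 and 3, and their summed signal was 14.05 to 15.92 on the transgenic arrays and 16.05 to 16.15 on the controls (log2 of the sum). Of 13 leukocyte markers 9 were below every control on replicate 1, beside the same 45.6% of all genes. Another 2, Itgam and Cd68, were above every control there, beside 32.0% of all genes. The list had medians of -2.24, -0.53 and -0.55 on the 3 transgenic arrays and summed signals of 10.64 to 11.71 against 12.21 to 12.51 on the controls. Itgam lay above every control on all 3 transgenic arrays, at 0.19, 0.63 and 0.79 from the control mean, and did not pass (limma adjusted p = 0.0891). Of these lists, 0 villus markers passed with limma (2 at an unadjusted p under 0.05) and 1 leukocyte marker fell, Cd8b1 at -0.55 (limma adjusted p = 0.0101). Id2, Id3, Smad6, Smad7, Bmp2 and Bmp4 were also below every control on replicate 1. On replicates 2 and 3 Bmp2 deviated from the control mean by 0.52 and 0.33, and Id3 by -0.03 and -0.10. There Id2 deviated by -0.26 and -0.39, Smad6 by -0.35 and -0.31, and Smad7 by -0.12 and -0.14. Bmp4, not above the background level on any array, deviated by -0.29 and 0.08. The part of villus or leukocyte cells in these signals was not tested.

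Crypt markers were split on replicate 1. Of 9, 6 were above every control there, beside 32.0% of all genes, and 3 below every control, beside 45.6%. The 3 were Olfm4, Ascl2 and Axin2, at -3.08, -0.90 and -0.42 from the control mean. The median of the list was 0.65 on replicate 1 and -0.81 and -0.86 on replicates 2 and 3. Smad5 and Bmp8b had the order of these medians, but not that of the 3 low markers. Their summed signal was 10.97 to 12.42 on the transgenic arrays and 12.43 to 12.71 on the controls, 2 of 9 fell, Olfm4 at -3.37 and Ascl2 at -1.03 (limma adjusted p = 0.000931 and 0.0142), and the part of crypt cells in the result was not tested. Markers of fibroblasts, smooth muscle, endothelium and enteric glia and neurons had median deviations between -0.24 and 0.08 on the transgenic arrays. The summed signal of fibroblast markers was 10.01 to 10.24 on the transgenic arrays and 10.40 to 10.47 on the controls, and that of endothelial markers 9.84 to 10.08 on the transgenic arrays and 9.63 to 9.67 on the controls, and their part in the result was not tested. Of the fibroblast markers Vim, the brightest on every array, alone passed, and the median difference of the 12 was -0.10. Of the endothelial markers Lyve1 alone passed, and the median difference of the 12 was -0.08. The array gives no value of 0, and 2 of 12 fibroblast, 3 of 8 smooth muscle, 4 of 12 endothelial and 2 of 6 glial and neuronal markers did not exceed the background level on any array. Of these lists 1 marker fell, Vim at -0.89 (limma adjusted p = 0.0227), and 1 rose, Lyve1 at 1.60 (limma adjusted p = 0.00692). The part of any of these cells in the rises of Id1 and Smad1 was not tested.

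**Figure D4:**
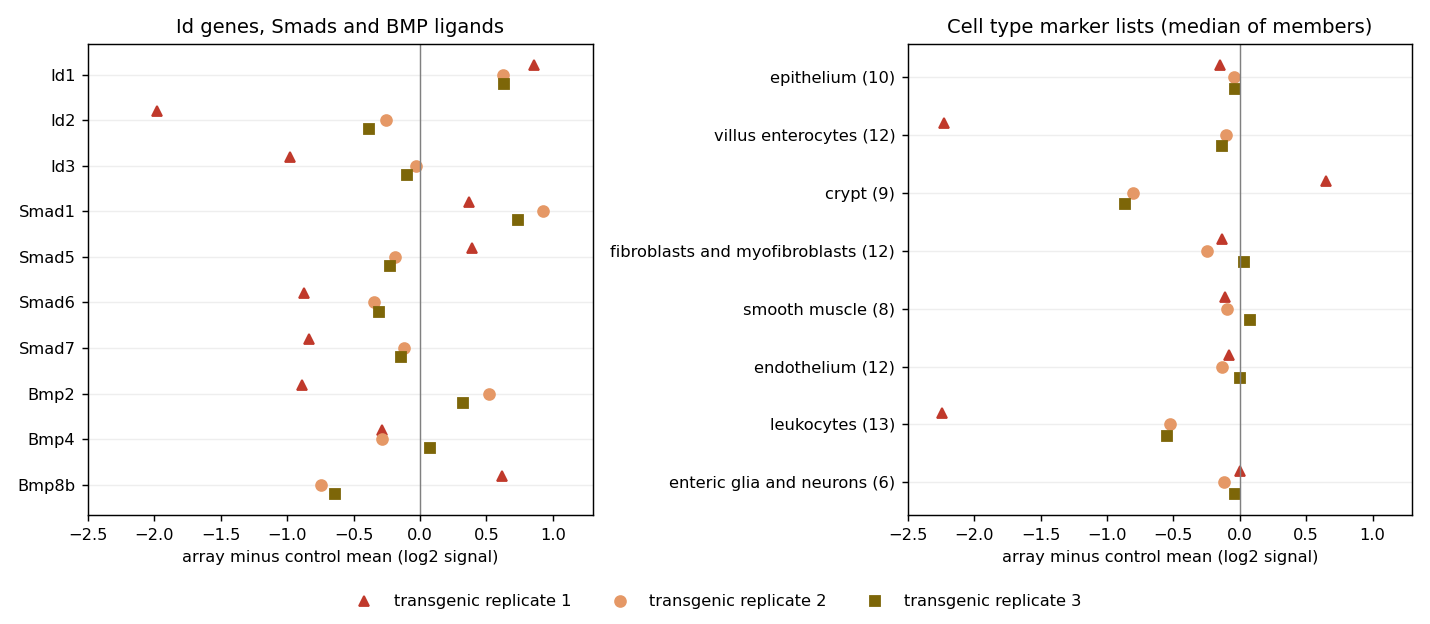
Log2 signal of each transgenic array minus the mean of the 3 control arrays (x axis) for the 10 genes (left) and for the median of each cell type marker list, with its number of measured genes (right). Replicate 1 (triangles) departs from replicates 2 and 3 for Id2, Id3, Bmp2 and Bmp8b, and for the villus (-2.23), leukocyte (-2.24) and crypt (0.65) lists.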

How the data were processed

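The values deposited by the authors are log2 signals of 35399 array rows (2.41 to 13.5, none missing), 250 ng of RNA having been labelled per array, per the labels' protocols. The submitters' processing notes name RMA, which in general combines background correction, quantile normalization and a probe summary, and Partek 6.5, and name no further setting. RMA compresses dim signals and hides changes in total RNA. The platform annotation gave 1 symbol for 21789 rows, several for 1621 and none for 11989. For the 999 genes with several rows the brightest was kept, leaving 19938 genes. Of these, 19856 were found in a RefSeq table by Entrez ID, and 0 changed symbol.

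The fit used R 4.3.3 and limma 3.58.1 with its lmFit and eBayes functions, on all 6 arrays with no covariate. It was also run on simulated arrays, which all had the spread of the controls. None of them stood apart as transgenic replicate 1 did, so that run does not show how the fit handles such an array. The sample titles gave the groups, and the series text calls the samples animals. The number of arrays limits the precision. The members and lists were chosen with earlier results of these data known. Genes named outside the members were those that passed and the 2 brightest others of each list, and for each member that passed the gene nearest in pattern, predicted genes left out. Smad9 and several cell type markers were named besides, after their values were seen. Alternatives were other normalizations, a filter on the dimmest 40%, blocks, trend and robust settings, array weights, mean rows, left-out arrays and an adjusted p under 0.1. Replicate numbers were not used as pairs, since same-numbered arrays deviated with correlations of -0.07, -0.17 and -0.12 across genes.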

Additional observations from a re-analysis of the deposited data

How the results depend on the processing

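Over 15 alternatives the differences of Id1 and Smad1 stayed above 0, from 0.60 to 0.79 for Id1 and from 0.55 to 0.85 for Smad1, and the calls were kept in 12 and 7. The cause of lost calls was not tested, but each left-out array also leaves fewer samples. With a replicate block on the title numbers, which did not pair the arrays, 733 of all genes passed against 2368, 0 members with limma (2 at an unadjusted p under 0.05) and 4 other pathway genes against 11. A block on the description numbers could use only 4 arrays and so left out transgenic replicate 1 and control replicate 1. It passed 4019 genes, among them Id1, Smad1 and Bmp8b, and the block and the left-out arrays cannot be told apart there. The calls of Nbl1, Rgmb, Ski, Tgif1, Tcf3, Tcf4 and Acvr1b were also lost with the title block (adjusted p 0.0514 to 0.134), and those of Rgmb and Ski with the description block (0.0638 and 0.159). Array weights passed 5770 genes and 21 other pathway genes. Quantile normalization and trend with robust settings each left 1 member, Id1. Leaving out 1 array at a time gave 683 to 5700 genes, 0 to 5 members and 2 to 19 other pathway genes, the highest of each without transgenic replicate 1. The differences of Smad5 and Bmp2, both -0.01, changed sign. Smad5 was 0.032 with equal array medians and lay between -0.21 and 0.10 with 1 array left out. Bmp2 was 0.026 with equal medians, 0.38 with the description block, 0.45 with array weights and between -0.28 and 0.42 with 1 array left out. The 6 other members kept their sign. Bmp4 could not be tested without the dimmest 40% of genes, to which it belongs.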

Other observations

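On the 5 arrays other than transgenic replicate 1, 19 of the 76 genes of the wider pathway lists passed with limma, or 25%, while 28.6% of all genes passed on these arrays. They were the 11 that passed over all arrays and 8 more. Of these 8, Bambi, Bmp7, Ctdsp2 and Nedd4l were named after their values were seen. Bmp7, a ligand, was lower at -0.69 (limma adjusted p = 0.00154), and had 8.09 on transgenic replicate 1 and 6.28 and 6.48 on the other 2 transgenic arrays, against 7.02, 7.20 and 6.98 on the controls. Replicate 1 was thus above every control and replicates 2 and 3 below them, the order that Bmp8b showed. Bambi, a receptor-like inhibitor of BMP and TGF-beta signalling, was lower at -0.44 (limma adjusted p = 0.0224), and the phosphatase Ctdsp2, related to Ctdsp1, at -0.56 (limma adjusted p = 0.0074). Nedd4l, a ubiquitin ligase of Smads, was lower at -0.30 (limma adjusted p = 0.0352) and Acvr1c at -0.88 (limma adjusted p = 0.000143). Twsg1 was higher by 0.35 (limma adjusted p = 0.0119).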
